A study of Drosophila melanogaster with 23 samples.

Results

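The regions described here lie in the *Bithorax* complex of *Drosophila melanogaster*, from one end of *Ubx* through *abd-A* to the far end of *Abd-B* (3R:16656623-16972236 of the dm6 build, 315.6 kb). Members were chosen by position alone: every ChIP-seq region of the 10 deposited peak lists that shared at least 1 bp with this span. There were 59 such regions out of 26996 on the assembled chromosomes, and they merged into 29 sites out of 11814 when regions of different lists that overlapped were joined. The study mapped Mzfp1 (CG1603), a protein with MADF domains and a cluster of C2H2 zinc fingers, by chromatin immunoprecipitation followed by sequencing in whole embryos and whole adult flies. For each region a list gives its ends, the position of highest signal (the summit) and its fold enrichment, the ChIP signal at the summit divided by the control signal.

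The 2 embryo lists came from y1w1118 embryos, 1 with a rat and 1 with a rabbit antibody against Mzfp1. The third list came from y1w1118 adults of 2 to 3 days and anti-Mzfp1 antibodies. The other 7 came from adults of the same age that carried a U:Mzfp1 transgene over the TM6,Tb balancer, integrated at the same landing site and expressed from the ubiquitous Ubiquitin-63E promoter as a protein with a C-terminal triple HA tag. The transgene was full length (wt-HA), without the second MADF domain (ΔM2-HA), without the CP190-interacting region (Δ42-HA) or without several fingers of the C2H2 cluster (ΔZF-HA). All 4 transgenic groups were precipitated with anti-HA, and wt-HA, ΔM2-HA and Δ42-HA also with anti-Mzfp1. By the study's genotype these flies carried the CG1603attP deletion over CyO, so 1 endogenous copy of CG1603 remained, and anti-Mzfp1 could precipitate untagged protein together with the tagged one. Immunoblots of the study showed more of the ΔM2-HA protein and less of the Δ42-HA protein than of wt-HA. Controls were preimmune rat and rabbit antibodies in embryos, anti-HA in y1w1118 adults and non-specific IgG in y1w1118 adults; they have no list of their own and enter only as the denominator of the fold. There is 1 list per group, with 2 libraries behind each adult list and 1 behind each embryo list, so no value below has a replicate error and no difference between lists was tested. Read depth is not part of the lists. They held 110 regions (embryo, rabbit) to 6215 regions (ΔM2-HA, anti-HA), which bears on every count.

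The *Bithorax* complex holds the homeotic genes that give the segments of the posterior thorax and the abdomen their identity. *Ubx*, *abd-A* and *Abd-B* encode homeodomain transcription factors, and each is driven by large regulatory domains that act in particular parasegments. Boundaries separate neighbouring domains and keep one from acting in the place of the next. The Fub boundary stands between the last regulatory domain of *Ubx* and the first of *abd-A*, and Fab-8 stands between neighbouring domains that drive *Abd-B*. Pita, Su(Hw) and dCTCF are zinc finger architectural proteins with sites in such boundaries, and CP190 is a partner protein that many of them recruit.

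The study's primers placed its landmarks on the genome. The cloned proximal Fub element lay at 3R:16798376-16798787 (412 bp, 2 primer mismatches), in the intergenic stretch between *Ubx* and *abd-A*. The sites for Mzfp1, Pita and Su(Hw) that the study deleted from it lay at 16798524-16798542, 16798653-16798670 and 16798741-16798756. The part of the element with these sites is shown because the strongest summits between *Ubx* and *abd-A* fell in it. Capitals mark the deleted Mzfp1, Pita and Su(Hw) sites, in that order, on the plus strand of 3R:16798504-16798776.
Fub: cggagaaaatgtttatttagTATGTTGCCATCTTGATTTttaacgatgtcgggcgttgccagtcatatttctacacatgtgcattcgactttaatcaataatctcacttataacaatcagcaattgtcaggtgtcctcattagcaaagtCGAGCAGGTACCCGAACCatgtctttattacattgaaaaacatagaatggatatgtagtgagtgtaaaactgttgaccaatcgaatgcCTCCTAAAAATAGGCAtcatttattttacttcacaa

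A second recurrent site lay in an *Abd-B* intron. Its sequence is shown on the plus strand of 3R:16969630-16969830, centred on the Δ42-HA anti-Mzfp1 summit, beside 50 bp of the study's Fab-8 probe on the minus strand of 3R:16919204-16919253. Capitals mark a word of 10 letters that both share, which is described further on.
Abd-B intron: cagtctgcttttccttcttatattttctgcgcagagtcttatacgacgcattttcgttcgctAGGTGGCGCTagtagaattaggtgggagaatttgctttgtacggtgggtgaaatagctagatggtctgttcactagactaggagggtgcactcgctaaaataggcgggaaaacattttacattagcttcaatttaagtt
Fab-8: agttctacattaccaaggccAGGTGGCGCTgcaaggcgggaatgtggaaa

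Anti-Mzfp1 marked few places in the complex, and the same ones nearly every time. The 6 anti-Mzfp1 lists held 13 regions in the span, the wt-HA anti-HA list held 1, and the 3 anti-HA lists of the deletion variants held 45. The 14 regions of the first 7 lists, with 1 Δ42-HA anti-HA region at Fub, formed 4 sites: Fub, the *Abd-B* intron, an intron of lncRNA:bxd and an intron of lncRNA:iab8. These were 13.8% of the 29 sites, against 21.7% of all merged sites of the series that held a region of any of these 7 lists. The other 25 sites were found only with anti-HA in the variant flies. Neither *Ubx* nor *abd-A* held an anti-Mzfp1 region within its annotated body.

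**Figure D1:**
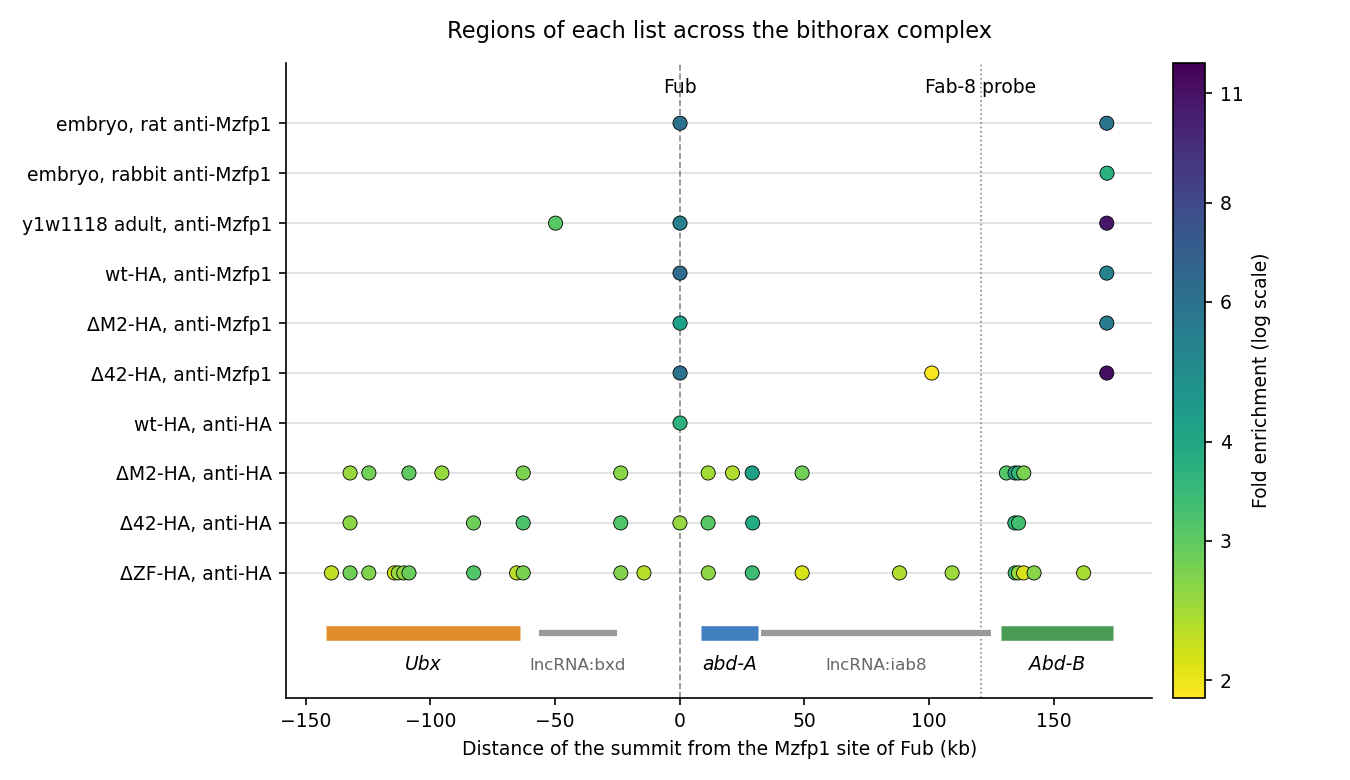
Every region of the 10 lists (rows) across the complex, plotted as the distance of its summit from the Mzfp1 site of Fub in kb and coloured by fold enrichment on a log scale; bars below give the genes, the dashed line Fub and the dotted line the Fab-8 probe. The anti-Mzfp1 lists stack at Fub and at the *Abd-B* intron 171.1 kb away, and the variant anti-HA lists spread over the 3 genes.

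Fub was in 7 of the 10 lists. In the rat embryo list it lay at 16798517-16798912 with a fold of 6, rank 138 of 784 regions by fold. In y1w1118 adults it lay at 16798479-16798780 with a fold of 5.42, rank 466 of 1666. In wt-HA flies anti-Mzfp1 gave the widest region, 782 bp at 16798143-16798924, which covered the whole element with a fold of 6.26 and rank 337 of 1684. The folds of these 3 lists thus lay between 5.42 and 6.26, each in the upper part of its list. The ΔM2-HA flies had a region at 16798515-16798912 with anti-Mzfp1, a fold of 4.19 and rank 443 of 1611. The Δ42-HA flies had one at 16798506-16798944, with a fold of 5.98 and rank 469 of 1994. Of these 5 folds that of ΔM2-HA was the lowest, but its rank as a share of its list (27.5%) was close to that of y1w1118 (28%).

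With anti-HA the Fub site had lower folds and was less often listed. The wt-HA region at 16798426-16798896 had a fold of 3.66 and rank 285 of 553, near the middle of its list. The Δ42-HA region at 16798478-16798703 was 226 bp wide, with a fold of 2.56 and rank 5396 of 6192. Neither the ΔM2-HA nor the ΔZF-HA anti-HA list had a region there, nor had the rabbit embryo list. Of the 584 merged sites in the rat embryo list and all 4 adult anti-Mzfp1 lists, 35.8% also had a wt-HA anti-HA region, and 192 were in both the wt-HA and the Δ42-HA anti-HA lists. Fub was 1 of only 5 of those 192 (2.6%) that lacked a ΔM2-HA anti-HA region. The 584 sites were 35.5% of the 1646 merged sites with a y1w1118 adult region, so presence in these 5 lists was common. The missing ΔM2-HA anti-HA call was uncommon only among those 192 sites. Of all y1w1118 regions 44.9% had a ΔM2-HA anti-HA region, and of all rat embryo regions 57.8%, so lacking one was common there.

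The calls at Fub also had lower −log10 p-values with anti-HA. Controls and read depths can differ between lists, so these values, here and below, are not on one scale. The −log10 p of the region with anti-Mzfp1 was 57.03 in rat embryos, 111.1 in y1w1118 adults, 125.1 for wt-HA, 46.53 for ΔM2-HA and 108.7 for the Δ42-HA flies. With anti-HA it was 31.72 for wt-HA and 14.04 for Δ42-HA. Each adult region also carries the value of a second input to the reproducibility step, and the listed p equals that of the first input in all 26250 adult regions. With anti-Mzfp1 the second input gave 186 for y1w1118, 153 for wt-HA, 70.5 for ΔM2-HA and 152 for Δ42-HA, and with anti-HA 26.3 for wt-HA and 18.3 for Δ42-HA. In both inputs ΔM2-HA was the lowest of the adult anti-Mzfp1 values, and both anti-HA values were below every anti-Mzfp1 value.

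The summits at Fub lay close together, and 6 of the 7 were nearest to the Pita site. The 7 summits fell within 69 bp, from 16798590 to 16798659. They were 57 to 126 bp (median 107) from the midpoint of the deleted Mzfp1 site, 2 to 71 bp (median 21) from that of the Pita site, and 89 to 158 bp (median 108) from that of the Su(Hw) site. The exception was the Δ42-HA anti-HA summit, 57 bp from the Mzfp1 site and 71 bp from the Pita site. All 7 regions covered the Mzfp1 and the Pita site. The Su(Hw) site lay outside the Δ42-HA anti-HA region alone, which ended at 16798703. The amplicon that the study used for quantitative ChIP at Fub, 16798624-16798746, overlapped the region in the same 7 lists.

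**Figure D2:**
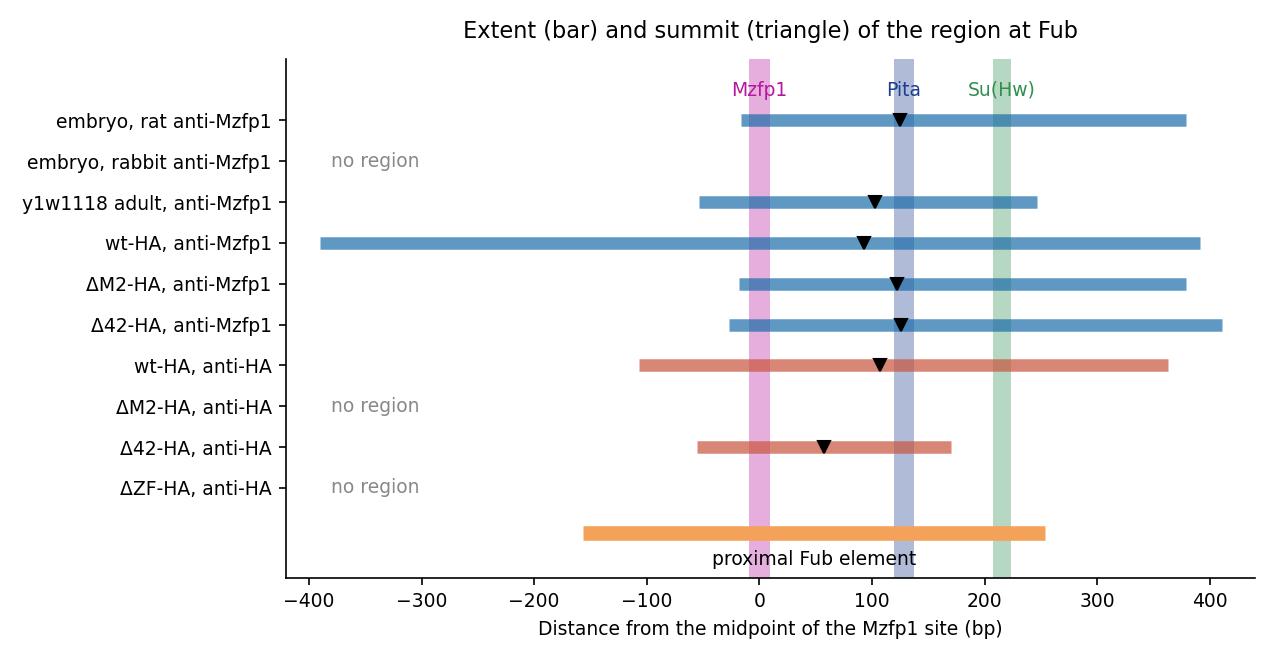
Extent (bars) and summit (triangles) of the region at Fub in each list, as distance in bp from the midpoint of the deleted Mzfp1 site; vertical bands mark the Mzfp1, Pita and Su(Hw) sites and the orange bar the cloned element. Blue bars are anti-Mzfp1 and red bars anti-HA lists. Summits sit 57 to 126 bp to the right of the Mzfp1 site, and 3 lists have no region.

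The *Abd-B* site held the highest folds of the complex. It lay in an intron of *Abd-B*, 1141 to 1254 bp from the nearest annotated start of the gene at 16968574 and 171.1 kb from Fub. In y1w1118 adults it lay at 16969525-16969916 with a fold of 10.7, rank 178 of 1666. In Δ42-HA flies, with anti-Mzfp1, it lay at 16969516-16969929 with a fold of 11.3, rank 205 of 1994. In wt-HA and ΔM2-HA flies the anti-Mzfp1 folds were 5.27 (16969531-16969861, rank 431 of 1684) and 5.63 (16969546-16969875, rank 273 of 1611). The adult lists thus fell in a high pair, y1w1118 and Δ42-HA, and a low pair, wt-HA and ΔM2-HA.

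The embryo lists were lower than the high pair. The rat list gave a fold of 5.92 at 16969576-16969861, rank 141 of 784. The rabbit list gave a fold of 3.74 at 16969719-16969940, rank 109 of 110, so this was one of its weakest regions, and its −log10 p of 8.423 compared with 55.44 in the rat list. The −log10 p was 386.9 for y1w1118 adults and 337.3 for Δ42-HA, against 95.47 for wt-HA and 86.5 for ΔM2-HA. The second inputs gave 537, 326, 85.7 and 84.6 for these lists, the same division into pairs.

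No anti-HA list held the *Abd-B* site. Absence from all anti-HA lists was common over the series, with 44.5% of the 1646 merged sites that had a y1w1118 adult region, so alone it does not set this site apart. Presence in all 6 anti-Mzfp1 lists was not common, with 5.04% of the same 1646 sites, where the rabbit list held 110 regions in all. Both together were seen at 6 of the 83 sites in all 6 lists (7.23%), and the *Abd-B* site was 1 of them. The amplicon at 94C that the study used beside Fub, 22794056-22794235, also had regions in anti-Mzfp1 lists and in no anti-HA list. Its folds were 12.2 in rat embryos, 84.8 for y1w1118 adults, 33.4 for wt-HA, 39.9 for ΔM2-HA and 79.9 for the Δ42-HA flies, and the rabbit list had no region there. The 94C amplicon thus showed the same high and low pairs of adult lists as the *Abd-B* site.

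Folds over different controls and depths are not on one scale, so the 584 shared sites served as the reference for the ratio of each list to y1w1118 adults. The ratios of a site all share its y1w1118 fold, so the lists are not independent of each other here. Fub stood above the median in each list. Its log2 ratio was 0.15 in rat embryos, 0.21 for wt-HA, −0.37 for ΔM2-HA and 0.14 for Δ42-HA, against medians over the 584 sites of −0.73, −0.23, −0.45 and 0.07. The share of the sites with a lower ratio than Fub was 89.9% in rat embryos, 83.7% for wt-HA, 59.2% for ΔM2-HA and 66.1% for Δ42-HA. The *Abd-B* site had log2 ratios of −0.86, −1.02, −0.93 and 0.08 in the same lists. Only 24 sites (4.11%) were lower in wt-HA and 52 (8.9%) in ΔM2-HA, while in Δ42-HA the site was near the median, with 51.4% of the sites lower. In ΔM2-HA and Δ42-HA Fub lay inside the interquartile range of the sites, and in rat embryos and wt-HA above it. Relative to untagged adults, Fub therefore stood above most shared sites in wt-HA and the *Abd-B* site stood below most, and this was not tested because each list gives 1 value per site.

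**Figure D3:**
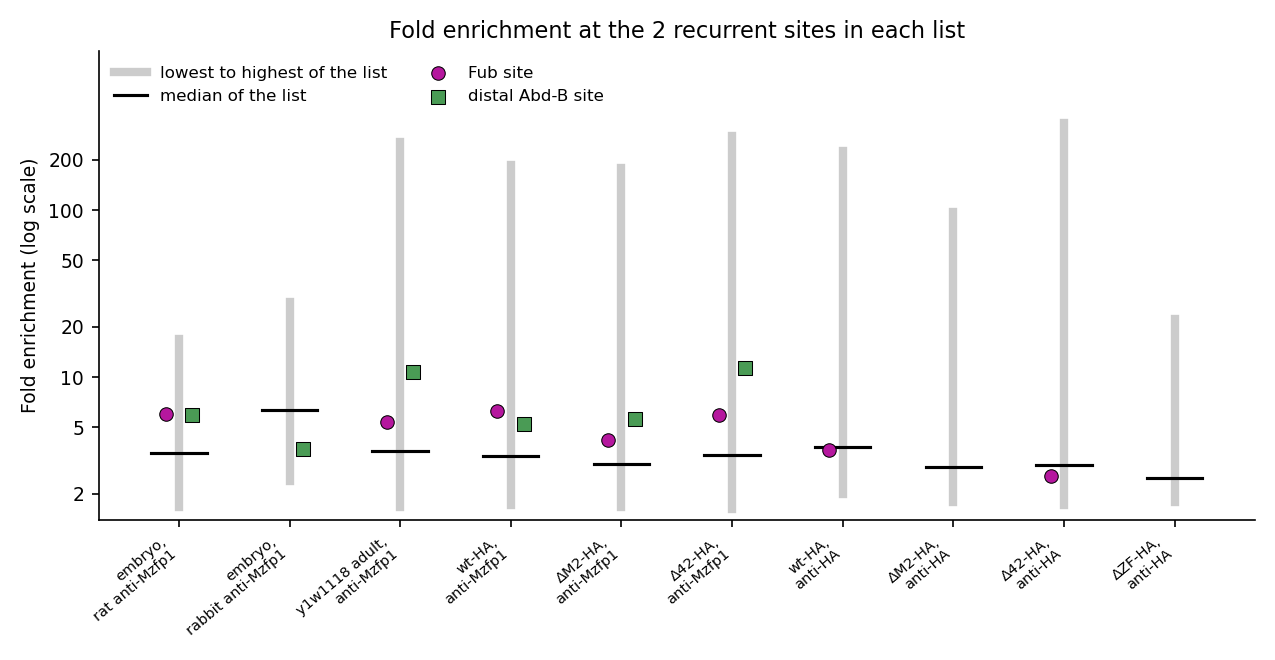
Fold enrichment (log axis) at Fub (circles) and at the *Abd-B* intron (squares) in each list, beside the median (black line) and the lowest to highest fold (grey bar) of all regions of that list. The *Abd-B* site reached 10.7 in y1w1118 and 11.3 in Δ42-HA with anti-Mzfp1 but only 5.27 for wt-HA and 5.63 for ΔM2-HA, and it is missing from the 4 anti-HA lists.

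The remaining anti-Mzfp1 regions were each in 1 list. One lay in an intron of lncRNA:bxd, the long noncoding RNA transcribed through the regulatory region upstream of *Ubx*. It was found in y1w1118 adults only, at 16748628-16748832, with a fold of 3.07. The other lay in an intron of lncRNA:iab8, a noncoding RNA transcribed between *abd-A* and *Abd-B*. It was found in Δ42-HA flies only, with anti-Mzfp1, at 16899489-16899679, with a fold of 1.93, below the list's median of 3.43. Of the 3 y1w1118 regions in the span 2 were in each of the other adult anti-Mzfp1 lists, while over all y1w1118 regions 80.7% were in the wt-HA list, 76.1% in the ΔM2-HA list and 93.9% in the Δ42-HA list.

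The Fab-8 probe of the study, 337 bp at 3R:16919068-16919404, overlapped no region of any list. The nearest site was 9.8 kb away, in the coding sequence of *Abd-B*. The 8.4 kb between the Fub element and *abd-A* held no region either.

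A short motif derived here, which was frequent under anti-Mzfp1 summits elsewhere, was not found in the regions of the complex. A 15-bp matrix was made with the 500 strongest y1w1118 adult regions of the chromosomes 2L, 2R and 4, starting from the word with the largest excess over flanks, ATCGATAG, which 100 of the 500 regions and 7 of 1000 flanks held. On 3L, 3R and X, which took no part in building it, a match at p of 1e-04 on either strand within 100 bp of the summit was found in 46.6% of y1w1118 regions and 3.62% of their flanks. With anti-Mzfp1 it was found in 42.8% of rat embryo, 40.7% of wt-HA, 40.3% of ΔM2-HA, 43.3% of Δ42-HA and 13.2% of rabbit embryo regions. With anti-HA the shares were 15.5% for wt-HA, 4.32% for ΔM2-HA, 3.71% for Δ42-HA and 1.59% for ΔZF-HA, the last 3 near or below their flanks at 3.24%, 3.65% and 2.92%. Of the 59 regions in the complex 0 had a match, whether near the summit or over the whole region. The rest of the span was not scanned with the matrix. Its starting word ATCGATAG occurred 3 times in the span on both strands, and 0 of these lay in a site. With 13 anti-Mzfp1 regions from 4 sites this count rests on few independent stretches of sequence.

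The best scores in the regions of the complex were below the threshold of 9.98 bits. Near a summit the highest was 7.42 bits, in an intron of *Ubx* in all 3 variant anti-HA lists. Over whole regions the highest was 7.66 bits, in the Δ42-HA anti-Mzfp1 region at Fub. Near the Fub summits the best stretch was 16798726-16798740 with 6.68 bits, just before the Su(Hw) site. Wholly inside the deleted Mzfp1 site the best score was −11.91 bits, and over stretches that overlapped this site it was 2.42 bits. The lncRNA:bxd site reached 6.52 bits and the *Abd-B* site −0.02 bits. The absence of a match says only that the letters of this matrix were not in the windows searched. Which protein binds those letters was not tested, so the matrix is not shown to be a motif of Mzfp1. The study's own Mzfp1 motif was not used here. With that motif the study identified an Mzfp1 peak with a motif in proximal Fub. Deleting the Mzfp1 site removed Mzfp1 binding in its gel shift assay.

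Another word came from the study's own designs. The deleted Mzfp1 site and the study's synthetic probe of repeated Mzfp1 sites share the 7 letters ATCTTGA, at 16798533-16798539 in the element. This word occurred 53 times in the span on both strands, and 4 of these lay in a site. Within 100 bp of the summit it was in 3.24% of y1w1118 regions and 2.85% of flanks, so it was about as frequent as outside the regions. The share was higher in the wt-HA anti-HA list, 7.59% against 2.62% of flanks, and in the rabbit embryo list, 19.1% against 1.82%. The wt-HA anti-HA list had Fub and not the *Abd-B* site, and the rabbit list the reverse. The wt-HA anti-HA region at Fub held the word, but not within 100 bp of its summit. The rabbit region at the *Abd-B* site did not hold it.

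The *Abd-B* site and the Fab-8 probe share the word AGGTGGCGCT, the longest they have in common, which was searched for after the values of the site had been seen. It does not overlap either of the other words. Its letters are those of the core of the known binding motif of dCTCF, and Fab-8 is a known dCTCF-bound boundary. In the 315.6 kb span it occurred 2 times on both strands, at 16969692-16969701 in the *Abd-B* site and at 16919224-16919233 in the probe. At the *Abd-B* site its centre lay 18 to 34 bp from the summits of the rat embryo and the 4 adult lists and 131 bp from the rabbit summit. Over the series it was rare near summits, in 0.48% of y1w1118 regions and 0.06% of flanks. A copy of the word was thus present both at the anti-Mzfp1 site with the highest fold of the complex and at a place with no region in any list.

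The variant anti-HA lists gave most of the regions in the complex. For ΔZF-HA with anti-HA the study itself saw neither true peaks nor significant signal. Its comparison of sites unique to a variant with anti-HA kept only those overlapping sites of wt-HA (anti-HA), y1w1118 adults or embryos. The variant regions below are entries of the deposited lists and are not shown to be Mzfp1 binding. ΔZF-HA had 22, ΔM2-HA 14 and Δ42-HA 9 regions, although the 3 lists were nearly equal in length over the series, 6187, 6215 and 6192 regions. These counts depend on the limits used, which also change the list lengths. At a common IDR limit of 0.01 for reproducibility the ΔM2-HA and Δ42-HA counts stayed at 14 and 9, while ΔZF-HA kept 11 regions in the complex and 3175 in all, and with a fold of at least 3 ΔZF-HA had 3 of 749 regions, ΔM2-HA 4 of 2775 and Δ42-HA 6 of 2959. As a share of its list ΔZF-HA was the highest in each case, with 0.356% as deposited, 0.346% at the common IDR limit and 0.401% at the fold limit. The ΔM2-HA shares were 0.225%, 0.225% and 0.144%, and the Δ42-HA shares 0.145%, 0.145% and 0.203%. As deposited, per 100 kb, these were 6.97, 4.44 and 2.85 regions, against 6.75, 6.22 and 5.1 in the rest of euchromatic 3R. The complex was at the level of its arm for ΔZF-HA and below it for Δ42-HA. Among 363 euchromatic windows of the same length, 32.2% held at least as many ΔZF-HA regions as the complex, 59.5% as many ΔM2-HA regions and 79.6% as many Δ42-HA regions. For the adult anti-Mzfp1 lists this share was 68.6% to 82.6%. The share was 49% for the rat embryo list, 57.9% for wt-HA with anti-HA, and 14.9% for the rabbit embryo list, where most windows held no region. The Δ42-HA anti-HA count of 9 lay just below the first quartile of the windows, 10.

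**Figure D4:**
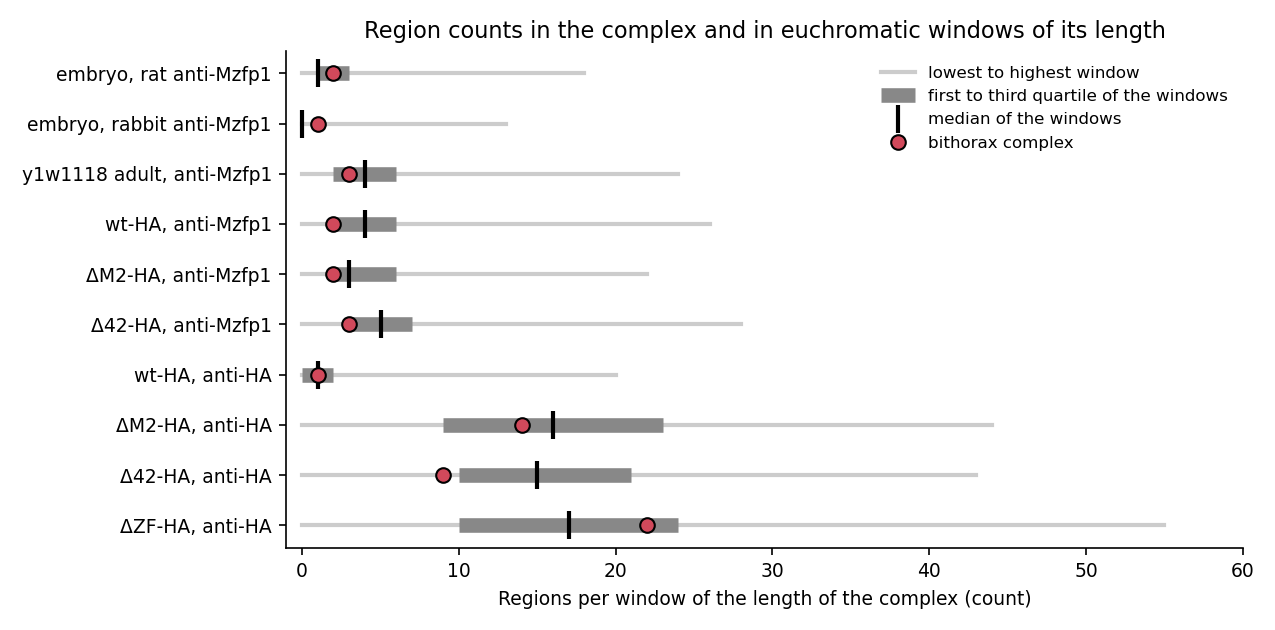
Number of regions of each list in the complex (red points) and in 363 euchromatic windows of the same length: the thin line runs from the lowest to the highest window, the thick bar runs from the first to the third quartile and the tick is the median. The points lie within the range of the windows in each list, with ΔZF-HA at 22 above its median of 17 and Δ42-HA at 9 below its median of 15.

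Of the 25 sites found only with anti-HA in the variants, 22 (88%) held a ΔZF-HA region, against 62% of the 9255 such sites of the series, at the limits of the lists as deposited. ΔM2-HA was in 14 and Δ42-HA in 8. ΔZF-HA was alone at 10 sites, ΔM2-HA at 3 and Δ42-HA at 0, while over the series Δ42-HA was alone at 18.6%. At 12 sites (48%) at least 2 variants had a region, against 47.4% of the series, and at 7 (28%) all 3 had one, against 22.8%. As deposited, the complex thus resembled the series in how often the variants shared sites, and its sites unique to a list were mostly those of ΔZF-HA. At the common IDR limit of 0.01 ΔZF-HA kept 11 of its 22 regions in the complex, while ΔM2-HA and Δ42-HA kept all of theirs. Most sites of ΔZF-HA alone then lost their region, and ΔM2-HA was alone at more sites than ΔZF-HA. The shares over the series at that limit were not computed.

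The 3 homeotic genes held most of these sites. The *Ubx* gene (77.8 kb) held 10 of them, *abd-A* (22.8 kb) 3 and *Abd-B* (45 kb) 6, which is 12.85, 13.14 and 13.33 per 100 kb. The stretch from *Ubx* to Fub (63.9 kb), which includes lncRNA:bxd, held 3, and that from *abd-A* to *Abd-B* (97.2 kb) 3, which is 4.69 and 3.09 per 100 kb. Most of the latter is covered by lncRNA:iab8 and the protein-coding gene *MSAmiP*, and its 3 sites lay in their introns. Summits lay in an intron at 14 sites, in a coding exon at 6, within 200 bp of an annotated start at 2, in intergenic sequence at 2 and in the noncoding exon of lncRNA:CR44945 at 1. The intron share was 56% against 33.1% over the series, the coding share 24% against 30.9%, the promoter share 8% against 8.83% and the intergenic share 8% against 17.8%. Each homeotic gene held 2 of the coding sites.

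The sites common to all 3 variants were spread over the complex. In *Abd-B* a coding site (16932431-16933333) had folds of 4.09 (ΔM2-HA), 3.61 (Δ42-HA) and 3.36 (ΔZF-HA), and a promoter site 113 bp from an annotated start (16934093-16934991) had 3.57, 3.31 and 2.55 in the same order. In *abd-A* the coding site near the start of the gene (16827208-16827985) had 4.18, 3.88 and 3.38, the highest of the variant regions, and a second coding site (16809561-16810989) had 2.46, 3.07 and 2.6. Both genes thus had the order ΔM2-HA, Δ42-HA, ΔZF-HA at their strongest coding site. Upstream of *Ubx*, a site 1334 bp from its start (16735642-16736028) had folds of 2.74, 3.21 and 2.75, and one near the start of lncRNA:bxd (16774594-16774977) 2.64, 3.15 and 2.7. In an intron of *Ubx* (16666258-16666483) the folds were 2.52, 2.62 and 2.85. At these 3 sites around *Ubx* the ΔM2-HA region was not the strongest. Over the 7 sites the medians were 2.74, 3.21 and 2.75, against 3.19, 3.05 and 2.67 over 2112 such sites of the series, where the highest region was ΔM2-HA at 55.8%, Δ42-HA at 36.9% and ΔZF-HA at 7.29%.

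The remaining coding sites were in 1 list each. *Ubx* had 2, both in ΔZF-HA alone, toward its 3′ end (16658735-16658983, fold of 2.27) and 1295 bp from its start (16732732-16733524, fold of 2.32). *Abd-B* had 1 in ΔM2-HA alone (16929254-16929592, fold of 3.11). Across the 25 sites the highest fold of a site ran from 2.15 to 4.18 with a median of 2.75, against a median of 2.8 over the series. Within their own lists some ranked high: the *abd-A* coding site near the start and the *Abd-B* coding site stood at 4.28% and 4.48% of the ΔZF-HA list and at 10.4% and 11.4% of the ΔM2-HA list by fold.

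The variant sites were richer in G and C than their surroundings. Their median GC content was 52.4%, against 41.8% in 50 flanks 2000 bp away on either side, and 51.7% against 42.8% over the series. The 4 sites with anti-Mzfp1 regions had a median of 38.9%, against 45.5% over the sites of the series with an anti-Mzfp1 or wt-HA region. A run of at least 4 CAG repeats, in any register and on either strand, was in 4 of the 25 sites (16%, against 12.4% of the series) and in 0 of the 50 flanks. A run of at least 4 CAA repeats was in 1 site (4%, against 9.56%), and a run of at least 6 CA repeats in 6 (24%, against 17.1%) and in 4 flanks. A simple repeat of any of these kinds was in 11 sites (44%, against 34.1% over the series). The shares of sites with repeats were thus near those of the series.

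Of the coding sites in all 3 variants, that of *Abd-B* held the most CAG runs, 6 in all, with the longest 18 bases long. The stretch with 4 of them is shown on the minus strand, the coding strand of the gene, at 3R:16932815-16933014, with the runs in capitals.
Abd-B coding: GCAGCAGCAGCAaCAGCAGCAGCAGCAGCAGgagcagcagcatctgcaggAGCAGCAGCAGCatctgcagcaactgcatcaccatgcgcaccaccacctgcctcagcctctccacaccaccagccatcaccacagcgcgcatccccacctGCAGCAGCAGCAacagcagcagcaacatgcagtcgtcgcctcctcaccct
Both coding sites of *abd-A* also held such runs, and neither coding site of *Ubx* did.

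The Antennapedia complex, the other homeotic complex on 3R, was the closest counterpart (*lab* to *Antp*, 337.8 kb). It held 62 regions in 31 sites. Of these, 30 were found only with anti-HA in the variants, and 10 of the 30 were in all 3 lists. Its 1 site with anti-Mzfp1 lay in an intron of *pb*, at 6708926-6709171, in the rat embryo, y1w1118 and Δ42-HA lists, with a highest fold of 5.27. No site was in as many anti-Mzfp1 lists as Fub or the *Abd-B* intron. ΔZF-HA again had the most regions, 26, against 20 in ΔM2-HA and 13 in Δ42-HA, and it was in 86.7% of the sites found only in the variants. In both complexes the order of the 3 lists as deposited was therefore the same, at the more lenient limit of the ΔZF-HA list.

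All 8 Hox genes, which are *lab*, *pb*, *Dfd*, *Scr*, *Antp*, *Ubx*, *abd-A* and *Abd-B*, had at least 1 variant-only site with its summit in coding sequence. Over the genome 16.5% of 13968 protein-coding genes had one, and 24.1% of the 7251 genes with a coding length at least that of the shortest of the 8. Of the homeobox genes of the Antennapedia complex that do not set segment identity, *zen*, *zen2* and *bcd* had no region and *ftz* had 1, a coding site in ΔZF-HA alone. The coding sites of *Scr*, *Antp* and *Ubx* were likewise in ΔZF-HA alone, with folds of 3.11 for *Scr*, 2.51 for *Antp*, and 2.27 and 2.32 for *Ubx*. Of the 8, *pb* and *Abd-B* held an anti-Mzfp1 region, and over the genome 20.8% of protein-coding genes did.

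**Figure D5:**
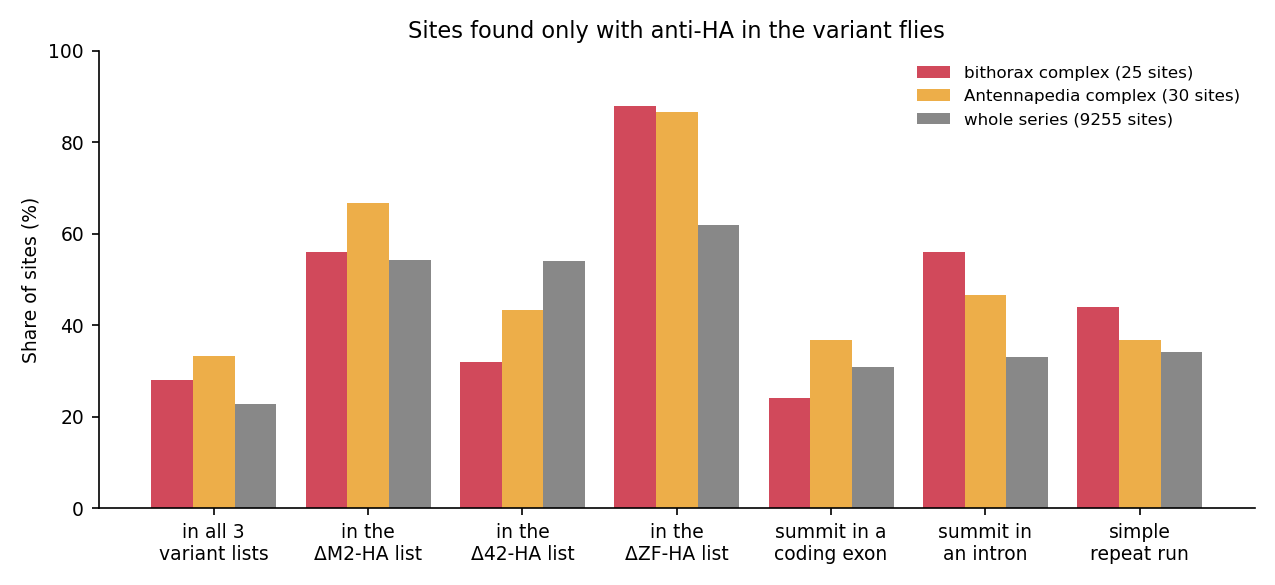
Share (%) of the sites found only with anti-HA in the variant flies that were in all 3 lists, in each variant's list, in coding exons, in introns or held a simple repeat run, for the *Bithorax* complex (25 sites), the Antennapedia complex (30 sites) and the whole series (9255 sites). ΔZF-HA was in 88% and 86.7% of the sites of the 2 complexes against 62% over the series, as deposited, at the more lenient IDR limit of the ΔZF-HA list.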

How the data were processed

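The authors used cutadapt and sickle to trim reads, aligned them with bowtie (embryos) or Bowtie2 (adults), removed duplicate and multiply mapped reads with Picard and called regions against preimmune controls with MACS2. The embryo threshold was a p of 1e-05. Adult regions were called at a p of 0.01 and kept by IDR limits of 0.05 between replicates or 0.01 between pseudoreplicates. The submitters' processing notes name both dm3 and dm6; the highest ends on 3R, up to 32068722, lie within the 32079331 bases of dm6. Which control went with each list is not given in the sources used here. The deposited lists give positions, the fold enrichment (a ratio), −log10 p-values and −log10 q-values and, in adults, the authors' score of reproducibility (−log10 IDR). Ends were written 1-based. No columns of the authors' comparisons between groups were present.

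Regions on the assembled chromosomes were read with Python 3.11 and numpy 2.4.6. Genes came from Ensembl release 115, and coding, promoter (within 200 bp of a start), intron and intergenic classes were given to the summit of the strongest region of a site. Regions sharing 1 bp were merged. Ranks are by fold within a list. Landmarks were placed by matching the study's primers to the genome. Flanks were the same width, 2000 bp away. No test was run, since each group has 1 list. Scripts were tested on simulated data. Every site of the span is counted by its lists, and the genes named are those of the span, the study's landmarks and the Antennapedia complex. Members, gene lists and comparisons were chosen with earlier results of these data known. Depth per library was not used here, so the precision of a fold is unknown.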

Additional observations from a re-analysis of the deposited data

How the results depend on the processing

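No paired analysis was possible because each group has 1 list made from all its libraries, and for the same reason no library could be left out. Of 93 alternative values 62 stayed within the spread allowed and 31 moved. Shortening every list to its 110 strongest regions took the 13 anti-Mzfp1 regions to 1, the wt-HA anti-HA region from 1 to 0, the 45 variant regions to 0, and the regions shared between lists to 0 (from 2 for y1w1118 and 31 for the variants). A fold of at least 3 left 13 of the 45 variant regions, and a −log10 q of at least 5 removed the rabbit region. One IDR limit of 0.01 left 11 of the 22 ΔZF-HA regions. Fub was in 7 lists, or 6 with a fold of at least 3 and 7 with a −log10 q of at least 5, the last added after seeing the data. Ranked by −log10 p, Fub stood at 20.5% of the list in rat embryos, 33.4% for both y1w1118 and ΔM2-HA, 23.8% for wt-HA and 27.9% for Δ42-HA (anti-Mzfp1), and at 73% for the Δ42-HA anti-HA list. Over euchromatic 3R alone these shares were 10.7% in rat embryos, 25.4% for y1w1118, 12.6% for wt-HA and 20.5% for Δ42-HA (anti-Mzfp1). The anti-HA lists gave 32.7% for wt-HA and 82.8% for Δ42-HA. The cause was not tested, apart from the shorter lists. Likewise added, a matrix from the 200 strongest wt-HA anti-HA regions matched 3 of the 59 regions, none at Fub or the *Abd-B* intron. On 3L, 3R and X it matched 11.3% of ΔM2-HA, 11.8% of Δ42-HA and 8.34% of ΔZF-HA anti-HA regions. In the other lists it matched 17% (rabbit embryo) to 26.9% (rat embryo) of the regions.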
